A study of Mus musculus with 8 samples.

Results

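The mouse Usp17l genes are a small family of deubiquitinases encoded on chromosome 7. The 5 members annotated as protein-coding, Usp17la, Usp17lb, Usp17lc, Usp17ld and Usp17le, were taken by symbol from the GENCODE M21 annotation of the mm10 genome, out of 54232 genes with an Ensembl identifier, and were followed one by one and as a family sum, the added counts of all 5. All 5 had a row in both deposited count tables. The RNA came from E14 mouse embryonic stem cells, a line of pluripotent cells, of the strain that the labels spell 12910la, grown on gelatin in serum (15% FBS) with leukaemia inhibitory factor (10 ng/ml). In one experiment, 2 libraries of control cells were set beside 2 libraries labelled Ssrp1 knockout, made with Cas9 and a guide RNA against Ssrp1, a subunit of the FACT histone chaperone. In the other, 2 control libraries were set beside 2 libraries labelled Usp7 knockdown, in which a short hairpin RNA against the deubiquitinase Usp7 was carried by a pSuper puro plasmid. The labels give 1000 ng of plasmid, 24 hours before selection, and 1 ug/ml puromycin for 3 days. They do not say which plasmid the Usp7 controls received, how many knockout lines the Ssrp1 libraries represent, or whether replicates were separate cultures. The p-values therefore weigh differences against the spread between these libraries, which may be technical.

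Deubiquitinases of the USP class are cysteine proteases that cut ubiquitin off other proteins and so can spare them from the proteasome. The mouse Usp17l genes were first described as DUB genes that are switched on quickly by interleukins in blood cells, and their transcripts are also known from the embryo at the 2-cell stage and from the rare 2-cell-like cells of embryonic stem cell cultures. The family consists of tandemly arranged copies, and its members resemble each other so closely that short reads cannot always be assigned to 1 of them.

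The members lay in a pair of clusters on chromosome 7 (GRCm38, the mm10 assembly). Usp17ld (ENSMUSG00000057321, also called Dub2a), at chr7:103249737-103252505 on the minus strand, and Usp17lc (ENSMUSG00000058976, Dub2), at chr7:103415072-103419880 on the plus strand, spanned 170.1 kb together. Usp17le (ENSMUSG00000043073, one of whose synonyms is Dub3) at chr7:104768049-104777470 on the minus strand, Usp17lb (ENSMUSG00000062369, Dub1a) at chr7:104840257-104842603 on the minus strand and Usp17la (ENSMUSG00000054568, Dub1) at chr7:104857009-104862667 on the plus strand spanned 94.6 kb. The clusters were 1348.2 kb apart. Annotated transcripts had at most 2 exons in Usp17lb, Usp17lc and Usp17ld, 3 in Usp17la and 4 in Usp17le. Most annotated genes between the members of a cluster, and the 3 nearest on either side, were olfactory receptor genes, nearly all without a single count in the 8 libraries. The highest total among them, 23 counts, belonged to Gm25774, an annotated miRNA gene that lies inside Usp17lc on the same strand.

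RefSeq promoter sequences (GRCm38.p6), trimmed here to the 250 bases before the annotated start, were at hand for 4 of the 5 members, Usp17le being the one without an entry. They are shown as a description of the 4 copies. Usp17le rose in both experiments below as these 4 did, and whether the sequences bear on the counts was not tested. Capitals mark a stretch of 29 bases that is identical in all 4, and each sequence reads 5′ to 3′ on the gene's own strand. The windows are chr7:104856766-104857015 for Usp17la, chr7:104842584-104842833 for Usp17lb, chr7:103416446-103416695 for Usp17lc and chr7:103252506-103252755 for Usp17ld. The Usp17lc window lies inside the GENCODE gene, ahead of the later of its annotated starts.
Usp17la: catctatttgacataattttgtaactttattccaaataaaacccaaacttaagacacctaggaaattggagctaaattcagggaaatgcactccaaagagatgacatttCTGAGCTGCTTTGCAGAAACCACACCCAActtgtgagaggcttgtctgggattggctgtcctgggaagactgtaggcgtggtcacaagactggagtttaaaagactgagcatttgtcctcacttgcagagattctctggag
Usp17lb: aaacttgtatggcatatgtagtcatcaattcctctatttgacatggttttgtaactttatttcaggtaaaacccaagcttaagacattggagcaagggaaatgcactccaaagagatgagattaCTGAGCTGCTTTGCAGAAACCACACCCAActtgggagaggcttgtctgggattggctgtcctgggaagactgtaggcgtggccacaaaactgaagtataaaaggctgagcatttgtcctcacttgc
Usp17lc: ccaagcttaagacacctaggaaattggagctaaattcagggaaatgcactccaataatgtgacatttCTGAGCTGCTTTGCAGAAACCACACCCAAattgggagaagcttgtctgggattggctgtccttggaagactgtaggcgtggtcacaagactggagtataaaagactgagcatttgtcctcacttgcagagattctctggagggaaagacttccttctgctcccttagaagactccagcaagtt
Usp17ld: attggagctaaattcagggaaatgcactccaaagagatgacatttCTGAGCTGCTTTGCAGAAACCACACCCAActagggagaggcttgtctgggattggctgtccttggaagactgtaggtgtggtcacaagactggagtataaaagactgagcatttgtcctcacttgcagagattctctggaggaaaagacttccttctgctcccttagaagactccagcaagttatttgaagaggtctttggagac
The stretch was chosen as the longest one that these 4 windows share, so its presence in all 4 was fixed in advance. On either strand it was found in 4 of 32851 promoter windows of the same length (0.0122%), the members themselves. The 4 windows are close copies, so a sequence found in several of them is not a set of independent matches. Where the windows could be aligned, pairs of members were identical at 92.1% to 97.3% of positions. The stretch contains a CACC box, written CCACACCC, which 3.2% of all windows hold. A CCAAT box (CCAAT) was present in 4 of 4 member windows and in 33.8% of all, and a TATA box (TATAAAA) in Usp17lb, Usp17lc and Usp17ld and in 4.98% of all. A STAT-type sequence (TTCNNNGAA) was present in Usp17la, Usp17lc and Usp17ld and in 7.02% of all windows. The E-box CACGTG (6.02% of all) had no match in the 4 windows. All were searched on both strands, and a match is a description of letters only. Counted from the annotated start, the TATA box began at -31 in Usp17lb, -88 in Usp17lc and -110 in Usp17ld, so the annotated starts of these copies do not sit at the same place in the shared sequence.

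The coding sequences (1401 to 1635 bases) were as close. Usp17lc and Usp17ld were identical at 98.4% of 1635 aligned positions, and the other pairs at 90.7% to 94.7%. Of the 1401 alignment columns without a gap, 1206 (86.1%) carried the same base in all 5 members. The longest run of these, 63 bases at coding positions 406 to 468 of Usp17la, shows where a read no longer than that can fit every member. A longer read meets a base or gap that differs among the 5 in this alignment.
all 5 members: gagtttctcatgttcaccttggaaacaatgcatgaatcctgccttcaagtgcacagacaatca
The most variable stretch of 60 bases, with 20 variable positions, shows the opposite, a place where a read can be told apart. Capitals mark a base that differs from the one that at least 3 of the 5 members share.
Usp17la: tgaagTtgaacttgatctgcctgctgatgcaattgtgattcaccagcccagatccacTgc
Usp17lb: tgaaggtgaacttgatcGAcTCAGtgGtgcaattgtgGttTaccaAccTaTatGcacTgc
Usp17lc: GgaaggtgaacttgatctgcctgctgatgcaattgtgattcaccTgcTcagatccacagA
Usp17ld: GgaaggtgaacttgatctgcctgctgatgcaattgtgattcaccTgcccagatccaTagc
Usp17le: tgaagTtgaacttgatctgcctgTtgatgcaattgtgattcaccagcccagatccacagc
Usp17lb carried 14 such bases in this stretch, Usp17lc 4, Usp17ld 3, and Usp17la and Usp17le 2 each.

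The exon sequence of each member was next divided into overlapping windows of 100 bases and each window was searched for in every annotated transcript. The share of windows found in no other gene was 96.2% in Usp17la, 91.8% in Usp17le, 89.7% in Usp17lb, 67.7% in Usp17lc and 60.5% in Usp17ld. Usp17lc and Usp17ld each had 745 windows in common with other members and none with genes outside the family. Counts of these 2 members are therefore the least certain one by one, and the family sum does not depend on how reads were divided among the 5. How reads with several matches were counted is not given in the sources used here. Outside the 5, Gm5053 shared 45 windows with Usp17lb, 38 with Usp17le and 4 with Usp17la, and the pseudogene Usp17le-ps shared 52 with Usp17le. The sum can therefore still depend on how reads were divided with these genes. Gm5053 had 6 and 26 counts in the Ssrp1 controls and 8 and 47 in the knockout-labelled libraries. Adgrv1, of the adhesion receptor class, shared 13 windows with Usp17la. It had 144 to 257 counts in every library and was not called in either experiment (edgeR adjusted p = 0.827 and 0.928).

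**Figure D1:**
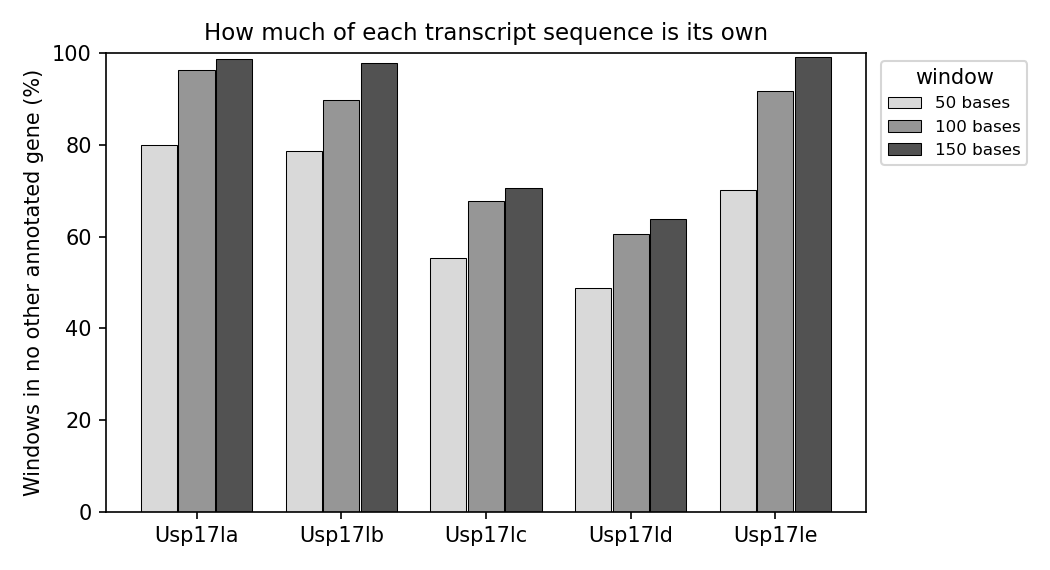
Share of overlapping exon windows of each Usp17l gene (%, y axis) that occur in no other annotated mouse gene, for windows of 50, 100 and 150 bases (bars). Usp17lc and Usp17ld have the lowest shares at each of the 3 lengths, 60.5% for Usp17ld against 96.2% for Usp17la at 100 bases.

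Library totals ran from 15879056 to 18361130 counts. Ssrp1 counts were 6447 and 8122 in its controls and 6074 and 2182 in the knockout-labelled libraries, a log2 change of -0.77 that did not pass (edgeR adjusted p = 0.411), so the first of these does not show the loss of the transcript. Usp7 counts were 6546 and 6484 in its controls and 2106 and 2339 after knockdown, a fall that passed (log2 change -1.64, edgeR adjusted p = 0.001245). Pluripotency markers were present throughout, with 12 listed genes adding up to between 6544 and 10420 CPM, the standard unit of counts scaled to sequencing depth, here on library totals without TMM factors. None of them was called by edgeR in either experiment, with 1 and 4 under an unadjusted p of 0.05, and DESeq2 called 1, after Usp7 knockdown. Markers of other cells were low, with summed levels of 17.6 to 60.1 CPM for 9 fibroblast genes, 38.8 to 75.3 CPM for 10 primitive endoderm genes and 53.6 to 113 CPM for 10 trophoblast genes, of which Prl3d1 was at 0 in every library. In the Ssrp1 experiment the primitive endoderm sum was 38.8 and 45.6 CPM in controls and 70.5 and 75.3 CPM in the knockout-labelled libraries, and mitochondrial genes took 0.732% and 0.776% of counts in controls but 7.31% and 2.81% there. The called genes of these lists were Dab2 (7.29-fold higher) and Gata3, on 1 control count, in the Ssrp1 knockout-labelled libraries, and Krt7 (5.88-fold higher) after Usp7 knockdown. Of 8 primitive endoderm genes tested in the Ssrp1 experiment, 5 had an unadjusted p under 0.05 and 2 were called by DESeq2 (median log2 change 1.88). Of 8 trophoblast genes tested in the Usp7 experiment, 6 had one and DESeq2 called none (median 1.15). Over all genes, DESeq2 called 1109 of 15757 in the Ssrp1 experiment and 697 of 15915 in the Usp7 one. For unadjusted p no share over all genes is given, so such counts, here and below, have no background beside them. The trophoblast sum was 55.0 and 79.3 CPM in the Ssrp1 controls and 82.4 and 113 CPM in the knockout-labelled libraries. It was 53.6 and 79.5 CPM in the Usp7 controls and 98.6 and 93.7 CPM after knockdown. The part of these differences in the results below was not tested.

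All 5 Usp17l genes rose in the Ssrp1 knockout-labelled libraries, between 7.20-fold and 13.2-fold, and the family sum rose 10.1-fold. The summed level was 22.8 and 33.4 CPM in controls and 189.7 and 380.4 CPM in the knockout-labelled libraries, here on totals scaled by TMM within the experiment, or 28.1 ± 7.48 against 285 ± 135 CPM (SD, n = 2 each). Both knockout-labelled libraries lay above both controls, and the second, with 6931 family counts, was well above the first, with 2884. The log2 change of the sum was 3.34 (SE 0.386, 95% interval 2.49 to 4.19, edgeR quasi-likelihood adjusted p = 0.005236). In bulk RNA, more cells that express the family and more RNA per cell cannot be told apart. Called genes, those with an adjusted p under 0.05 over all 15757 genes tested, made up 3.71% of these, and called higher ones 3.39%, against 5 of 5 members.

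Usp17la, whose product is known as DUB-1, had 2.76 and 4.25 CPM in controls and 31.3 and 61.4 CPM in the knockout-labelled libraries, a 13.2-fold rise (log2 3.72, SE 0.446, edgeR adjusted p = 0.005702). Usp17lb, its nearest neighbour in the second cluster, had 4.27 and 6.97 CPM against 47.5 and 98.5 CPM, a 13-fold rise (log2 3.70, SE 0.438, edgeR adjusted p = 0.005498). These 2 members were the ones with the largest fold changes of the family, and each was called in all 11 alternative settings tried in this experiment. Usp17lc, the DUB-2 gene, had 4.92 and 7.76 CPM in controls and 42.5 and 87.0 CPM in the knockout-labelled libraries, a 10.2-fold rise (log2 3.35, SE 0.428, edgeR adjusted p = 0.007248). Its close copy Usp17ld had 2.95 and 4.82 CPM against 24.9 and 50.3 CPM, a 9.64-fold rise (log2 3.27, SE 0.460, edgeR adjusted p = 0.007957). Neither can be read as fully separate from the other, given the windows they share. Usp17le, the member of the second cluster that has the highest control level, had 7.94 and 9.63 CPM in controls and 43.5 and 83.1 CPM in the knockout-labelled libraries, a 7.20-fold rise (log2 2.85, SE 0.384, edgeR adjusted p = 0.007248). In each of the 5 genes both knockout-labelled libraries were above both controls, an arrangement that 27.3% of the genes tested in this experiment showed.

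Leaving out 1 control library ended the call of 3 members, at log2 changes of 3.04 for Usp17lc, 2.94 for Usp17ld and 2.69 for Usp17le. Without Ssrp1 control replicate 1, Usp17la and Usp17lb were still called, while edgeR adjusted p was 0.05496 for Usp17lc, 0.07308 for Usp17ld and 0.05953 for Usp17le, so 2 of 5 members were called. In that fit 20 genes were called in all, against 585 with every library. The family sum was called in each of the 4 fits with 1 library left out, with a log2 change of 3.70 without the first library labelled knockout, the one with its Ssrp1 counts near the control level, and 2.75 without the second.

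**Figure D2:**
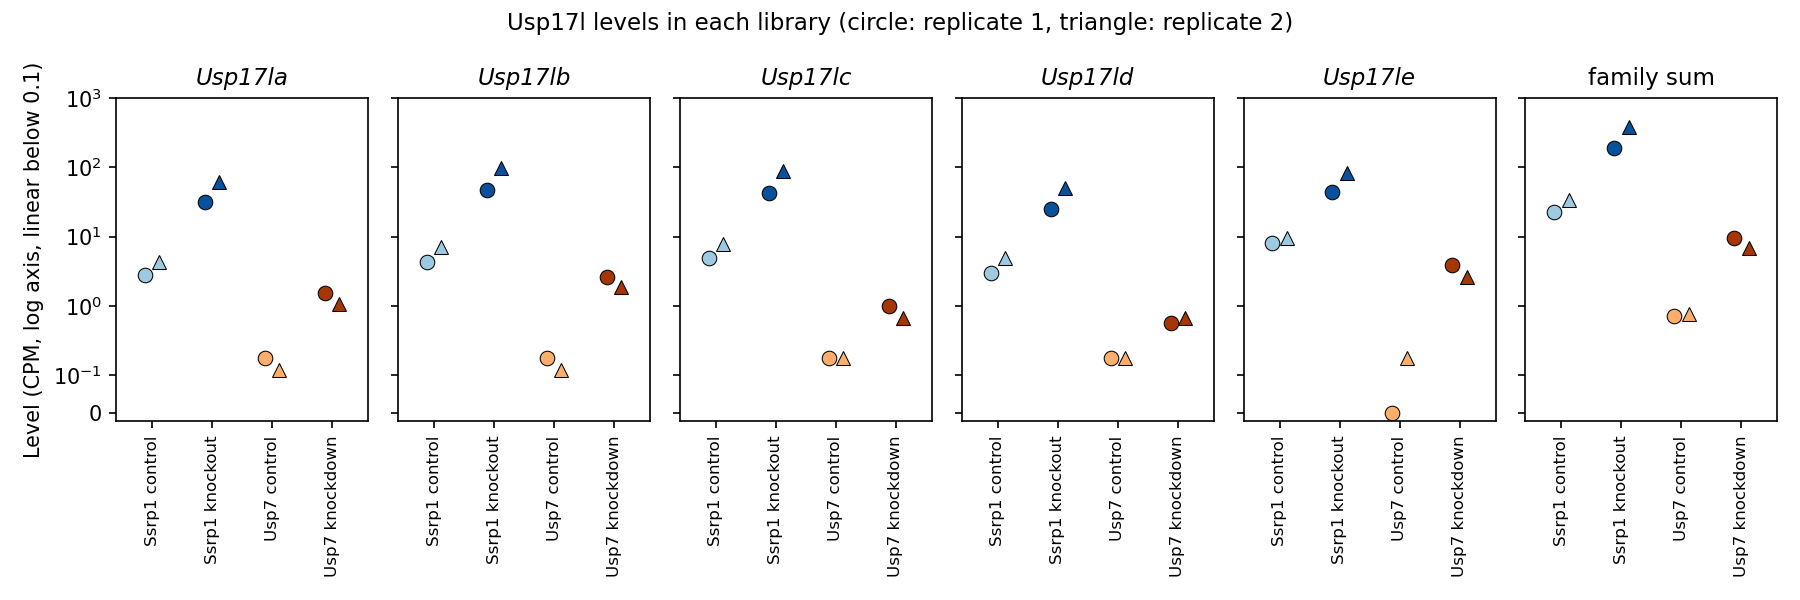
Level of each Usp17l gene and of the family sum in each of the 8 libraries (y axis: CPM after TMM scaling within each experiment, log axis, linear below 0.1), by group (x axis), with circles for replicate 1 and triangles for replicate 2. Both perturbed libraries lie above both controls of their experiment in every panel, and the Usp7 controls are lowest, at 0.707 and 0.763 CPM for the family sum.

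After Usp7 knockdown the family sum rose 11.1-fold, from a level far lower than in the Ssrp1 controls. Usp17la, Usp17lb and Usp17le passed the test. The summed counts were 12 and 13 in controls and 174 and 125 after knockdown, or 0.735 ± 0.0398 against 8.25 ± 1.97 CPM (SD, n = 2 each). The log2 change of the sum was 3.48 (SE 0.393, 95% interval 2.61 to 4.34, edgeR quasi-likelihood adjusted p = 0.001081). Both knockdown libraries lay above both controls for the sum and for each of the 5 genes, an arrangement shared by 24.6% of the 15915 genes tested. Of the 4 members that passed the filter on low counts, 3 were called, against 2.99% of all genes tested called and 2.36% called higher. A gene at these levels passes that filter through its higher group, so the count over the tested members is not evidence of its own.

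Usp17le had 0 and 3 counts in the Usp7 controls and 71 and 48 after knockdown (log2 change 5.11, SE 0.768, edgeR adjusted p = 0.006229). A count of 0 in the first control allows a level of up to 0.177 CPM there, on a floor of 3 counts. With 3 control counts in all, the ratio of its scaled counts was 37.2 with an exact 95% interval of 12.4 to 183, which covers counting error only. The fitted log2 change was 4.17 without the first control and 8.87 without the second, and called in both. Usp17lb had 3 and 2 counts in controls and 47 and 34 after knockdown, a 14.6-fold rise (log2 3.86, SE 0.628, edgeR adjusted p = 0.0096). Usp17la had 3 and 2 counts in controls and 28 and 19 after knockdown, an 8.46-fold rise (log2 3.08, SE 0.684, edgeR adjusted p = 0.03788). These 3 genes form the second cluster on the chromosome. Usp17lc had 3 and 3 counts in controls and 18 and 12 after knockdown, with a log2 change of 2.19 that missed the threshold (95% interval 0.65 to 3.72, edgeR adjusted p = 0.137). Usp17ld had 3 and 3 counts in controls and 10 and 12 after knockdown and was left untested by the filter, with a ratio of scaled counts of 3.44 (exact 95% interval 1.35 to 10.4, counting error only). The controls held 25 family counts in all, and whether Usp17lc and Usp17ld changed less than the other 3 was not tested.

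The single-gene calls in this experiment depended on the settings more than the sum did. Without Usp7 knockdown replicate 2, no member was called, with edgeR adjusted p of 0.327 for Usp17la, 0.0953 for Usp17lb and 0.05245 for Usp17le, while their log2 changes were 3.34, 4.08 and 5.37, each larger than with all libraries. In that fit 42 genes of the whole table were called. The family sum was still called there (log2 change 3.70, edgeR adjusted p = 0.01502). When all rows were kept without a filter, 1 member, Usp17lb, was called. Usp17la lost its call in 6 of 11 alternatives, DESeq2 among them (adjusted p = 0.0665).

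**Figure D3:**
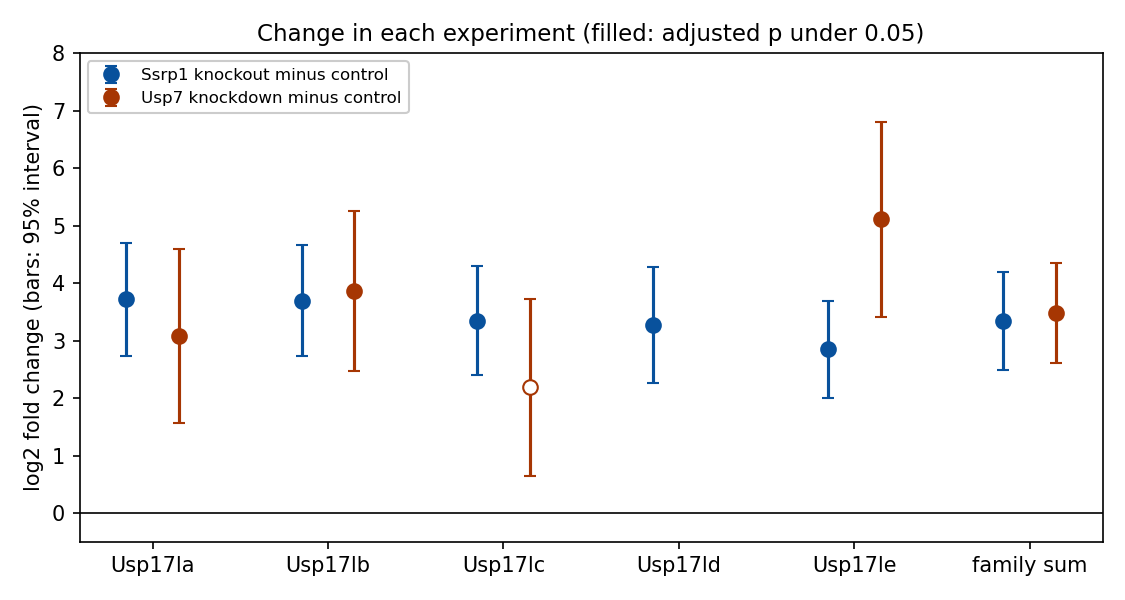
Log2 fold change of each Usp17l gene and of the family sum (y axis, with 95% intervals as bars) in the Ssrp1 knockout-labelled libraries and after Usp7 knockdown, each against its own controls. Filled points have an edgeR adjusted p under 0.05; the open point is Usp17lc after knockdown (0.137), and Usp17ld was untested there.

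The difference between the 2 changes was tested in 1 fit of all 8 libraries. No member was called, at 1.00% of the 17052 genes tested called in either direction, and DESeq2 called none of the 5 either. For the family sum the knockout change minus the knockdown change was -0.18 on the log2 scale, with a 95% interval from -1.31 to 0.95 (edgeR adjusted p = 0.912) and a ratio of the 2 fold changes of 0.883 (0.403 to 1.94). Usp17le was the member with the lowest unadjusted p, at 0.02674, with a difference of -2.30 (95% interval -4.29 to -0.32, edgeR adjusted p = 0.259), that is, a smaller change in the Ssrp1 knockout-labelled libraries, and it was the only member under 0.05 before adjustment. This value was -1.39 without the first Usp7 control and -5.97 without the second, and was not called in either fit. For Usp17ld, Usp17lc and Usp17la the differences were 1.49, 1.12 and 0.60, and for Usp17lb -0.21, each with an interval that includes 0.

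The family's level also differed between the 2 experiments. In order of size, the summed level was 285 CPM in the Ssrp1 knockout-labelled libraries, 28.1 CPM in the Ssrp1 controls, 8.25 CPM after Usp7 knockdown and 0.735 CPM in the Usp7 controls. In the fit of all 8 libraries, scaled together, the Usp7 controls were 42.3-fold lower than the Ssrp1 controls (log2 -5.40, SE 0.435, edgeR adjusted p = 0.0005378), although both are described as control E14 cells, and 4.06% of all genes tested were called lower in this comparison. The Usp7 knockdown libraries still lay 3.8-fold below the Ssrp1 controls (log2 -1.93, SE 0.340, edgeR adjusted p = 0.004858, 11.4% of genes called lower). The Ssrp1 knockout-labelled libraries lay 37.3-fold above the Usp7 knockdown ones (log2 5.22, SE 0.382, edgeR adjusted p = 0.000122, 10.4% of genes called higher). All 5 members were called in the same direction as the sum in each of these 3 comparisons. They were added after the levels had been seen, and experiment and treatment cannot be told apart in them.

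Among the single members the order of levels per length, in CPM per kilobase of exon, differed between groups. In the Ssrp1 knockout-labelled libraries it was Usp17lb (46.8 ± 23.1), Usp17le (31.9 ± 14.1), Usp17lc (26.4 ± 12.8), Usp17ld (18.9 ± 9.02) and Usp17la (17.5 ± 8.01; SD, n = 2). In the Ssrp1 controls Usp17le came first (4.42 ± 0.600), then Usp17lb (3.6 ± 1.22), Usp17lc (2.59 ± 0.818), Usp17ld (1.96 ± 0.662) and Usp17la (1.32 ± 0.397). The group means of neighbours in either of these orders differed by less than the larger of their SDs. Within a library the order was the same in both replicates of each of these groups, with Usp17lb over Usp17le at 30.4 against 21.9 and 63.1 against 41.8 in the knockout-labelled libraries, and Usp17le over Usp17lb at 3.997 against 2.73 and 4.85 against 4.46 in the controls. After Usp7 knockdown the order was Usp17le (1.65 ± 0.463), Usp17lb (1.43 ± 0.334), Usp17la (0.489 ± 0.135), Usp17lc (0.338 ± 0.0977) and Usp17ld (0.305 ± 0.0372). Usp17le and Usp17lb differed by less than the larger of their SDs, as did Usp17lc and Usp17ld, whose order differed between the replicates. In the Usp7 controls all members were between 0.0443 and 0.0942 CPM per kilobase, on 3 to 6 counts each.

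The make-up of the family's counts does not depend on library scaling. Usp17ld and Usp17lc, the first cluster, gave 34.5% and 37.6% of the family's counts in the Ssrp1 controls and 35.5% and 36.1% in the knockout-labelled libraries. After Usp7 knockdown they gave 16.1% (exact Clopper-Pearson 95% interval 11.0 to 22.4, 174 counts) and 19.2% (12.7 to 27.2, 125 counts). In the Usp7 controls the shares were 50% and 46.2%, but on 12 and 13 counts, with intervals from 21.1 to 78.9 and from 19.2 to 74.9. Over both libraries of a group the share was 48% in the Usp7 controls (27.8 to 68.7, 25 counts) and 17.4% after knockdown (13.3 to 22.2, 299 counts), and these intervals did not overlap. The intervals after knockdown did not overlap those of the 4 Ssrp1 libraries, the lowest of which began at 29.5%. The split into clusters was looked at after the counts had been seen, and this difference has no test across libraries. Usp17le gave 31.0% of family counts in the Ssrp1 controls, 22.2% in the knockout-labelled libraries, 39.8% after Usp7 knockdown and 12% in the Usp7 controls (3 of 25 counts, interval 2.55 to 31.2). Usp17lb gave 20.0%, 25.6%, 27.1% and 20.0% in the same order of groups. These intervals cover counting error only, since reads were amplified without molecular identifiers that the labels mention.

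**Figure D4:**
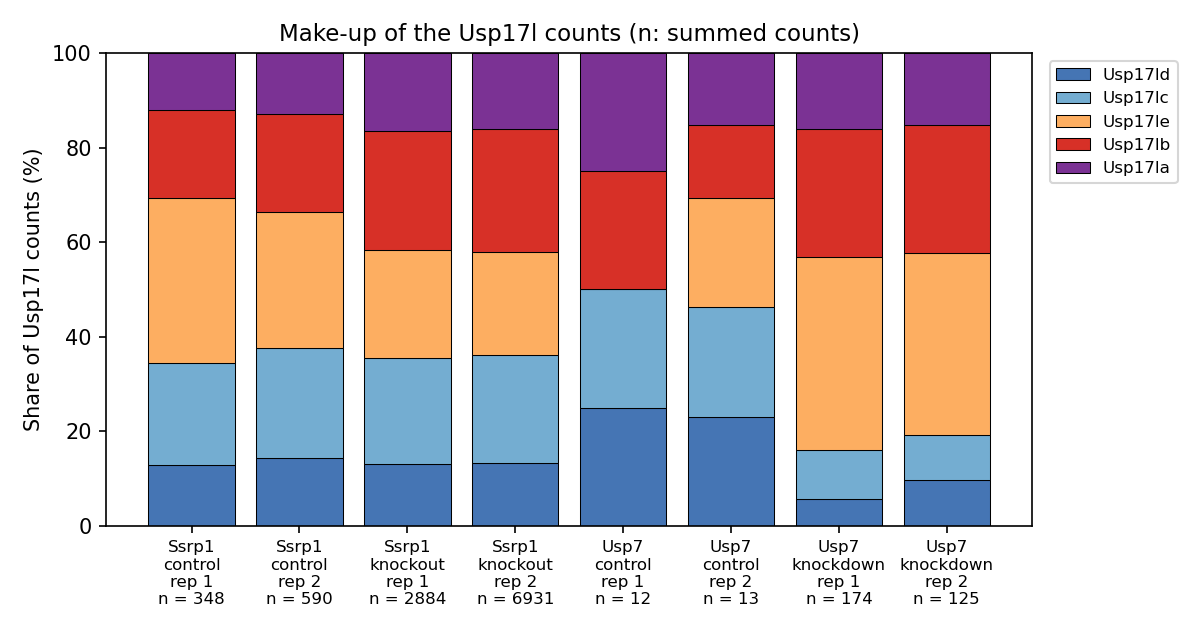
Share of the family's summed counts (%, y axis) taken by each Usp17l gene in each library (x axis), with the summed counts under each bar. Usp17ld and Usp17lc together take 16.1% and 19.2% after Usp7 knockdown and 34.5% to 37.6% in the 4 libraries of the Ssrp1 experiment, and the Usp7 control bars rest on 12 and 13 counts.

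Across the 8 libraries the members followed each other, with Pearson correlations of log2 CPM between 0.936 (Usp17ld and Usp17le) and 0.997 (Usp17lc and Usp17ld, and Usp17la and Usp17lb). These points share libraries and groups, and members share reads. The genes whose pattern was most like the family sum, among 14850 genes tested in both experiments, were Gm48754 (r = 0.994), Gm5039 (0.994), Gm21037 (0.994), Gm7957 (0.993) and Gm20767 (0.992). Gm5039, for instance, had 148, 221, 918 and 2916 counts in the Ssrp1 libraries, controls first, and 9, 4, 56 and 52 in the Usp7 ones. Gm20767 had 252, 335, 942 and 2725 counts in the first and 9, 7, 60 and 52 in the second. All 5 were called in the Ssrp1 experiment, and after Usp7 knockdown Gm5039, Gm21037 and Gm20767 were called while Gm48754 (edgeR adjusted p = 0.05522) and Gm7957 (0.07355) were not. They were picked for following the sum in these libraries, so their calls are a description only.

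Other markers of the 2-cell-like state moved with the family. Of 30 listed genes outside Usp17l, 26 were tested in the Ssrp1 knockout-labelled libraries, of which 22 were called higher and none lower. Over all genes tested, 3.39% were called higher. The median log2 change was 3.65 against 0.03 over all genes tested. A gene low in the controls can pass the filter through the knockout-labelled libraries, so this count and median describe the 26 tested genes only. DESeq2 called 19 of them, and 14 were called with GC and length correction. Without Ssrp1 control replicate 1 fewer were called, although more were tested. Among the 22 were Trim43a (50.8-fold), B020004J07Rik (41.4-fold) and D13Ertd608e (34.9-fold), and Gm10696, whose controls held 1 count in all. After Usp7 knockdown 11 of the 30 were tested, 10 were called higher, beside 2.36% of all genes tested, and none lower. The median was 2.60 against -0.02 over all genes tested. At control levels this low a gene passes the filter mainly through its knockdown libraries, so this count and median describe the tested genes only. Without a filter 3 of 25 tested were called, and in the fit of all 8 libraries 1 of 27. With either knockdown library left out fewer than 10 were called, and the number tested changed as well or stayed at 11. The 10 were led by Gm4340 (7.71-fold), Zscan4a (7.22-fold), Zscan4e (7.02-fold) and Zscan4c (6.84-fold), the last 3 of the Zscan4 family, which is known for telomere maintenance in these cells. The summed level of the 30 genes was 110.1 and 281 CPM in the Ssrp1 controls, 821 and 2736 CPM in the knockout-labelled libraries, 7.95 and 9.78 CPM in the Usp7 controls and 59.8 and 47.3 CPM after knockdown, so the 4 groups stood in the same order as for Usp17l. Duxf3, the transcription factor Dux that starts the 2-cell programme, had 8 and 9 counts in the Ssrp1 controls and 20 and 47 in the knockout-labelled libraries, which did not pass (log2 change 1.90, edgeR adjusted p = 0.172), and 1, 2, 6 and 1 counts in the Usp7 libraries. All 15 listed regulators of that programme were tested in the Ssrp1 experiment. Of these, Rif1 (4.10-fold), a telomere and replication timing factor, and Zmym2 (2.61-fold), a zinc finger repressor, were called higher. The list's median log2 change was -0.14, and 3.71% of all genes tested were called. After Usp7 knockdown 14 were tested and Chaf1b, a subunit of the histone chaperone CAF-1, was called lower (log2 change -0.84). There the list's median was -0.03, and 2.99% of all genes tested were called. Whether these few calls exceed those shares was not tested.

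Few other deubiquitinases were called, and after Usp7 knockdown, Usp7 aside, only Otud6a was called by edgeR. Another 50 genes, Usp7 left out, were taken by a symbol of Usp and a number alone, Usp6nl among them. Whether each encodes a protease was not checked. Of these, 49 were tested in the Ssrp1 experiment and 3 were called, all higher, beside 3.71% of all genes tested. Their median log2 change was 0.23. DESeq2 called 5 of the 49, beside 1109 of all 15757 genes, and 11 had an unadjusted edgeR p under 0.05. The 3 called by edgeR were Usp14, the X-linked Usp9x (3.56-fold) and its Y-linked counterpart Usp9y. Usp14, a deubiquitinase of the proteasome, went from 590 and 1071 counts to 2783 and 2167 (3.04-fold). Usp9y went from 1 and 0 counts to 24 and 28, and Usp9x from 634 and 2014 to 4450 and 4781. In the Usp7 libraries, controls included, Usp14 had 2018 to 2222 counts and Usp9x 4673 to 8869. After Usp7 knockdown 48 were tested and none was called by edgeR or by DESeq2, with 5 under an unadjusted edgeR p of 0.05 and a median of 0.05. Of 36 tested deubiquitinases of other classes, edgeR called 1 in each experiment, beside 3.71% and 2.99% of all genes tested. Uchl5, also of the proteasome, was called higher in the Ssrp1 knockout-labelled libraries (2.66-fold). Otud6a was called higher after Usp7 knockdown (7.96-fold). Whether the calls of either list exceed those shares was not tested. DESeq2 called 3 and 1 of these 36, beside 1109 of 15757 and 697 of 15915 genes in the 2 experiments. An unadjusted edgeR p under 0.05 was found for 9 and 5 of them.

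Listed cytokine receptor and JAK-STAT genes were not called where they could be tested. They were listed because interleukins switch on DUB genes in blood cells, but they are not limited to those pathways. Of these 17 genes, 12 were tested in each experiment and none was called by edgeR or by DESeq2. In the Ssrp1 experiment 1, and in the Usp7 experiment 2, had an unadjusted edgeR p under 0.05. Over all genes tested, edgeR called 3.71% in the Ssrp1 and 2.99% in the Usp7 experiment, so a lack of calls among 12 genes says little. Csf2rb, the shared receptor chain for interleukin 3, had 0 counts in all 4 Ssrp1 libraries and 3, 3, 0 and 1 in the Usp7 ones, and Il2rb, a chain of the interleukin 2 receptor, had 0 to 3 counts in every library. Il3ra, the partner chain of Csf2rb, was read at 97, 82, 77 and 73 counts in the Ssrp1 libraries and 286, 205, 187 and 174 in the Usp7 ones (edgeR adjusted p = 0.833 and 0.325). Of 9 genes for proteins reported as substrates of USP17-type enzymes, none was called in either experiment by edgeR or by DESeq2, with 3 and 2 under an unadjusted edgeR p of 0.05. Beside the same shares over all genes, a lack of calls in this short list says little too. Cdc25a, a phosphatase that drives the cell cycle, had log2 changes of 0.26 and -0.30 (edgeR adjusted p = 0.664 and 0.429). RNA levels do not show whether a protein was stabilised.

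**Figure D5:**
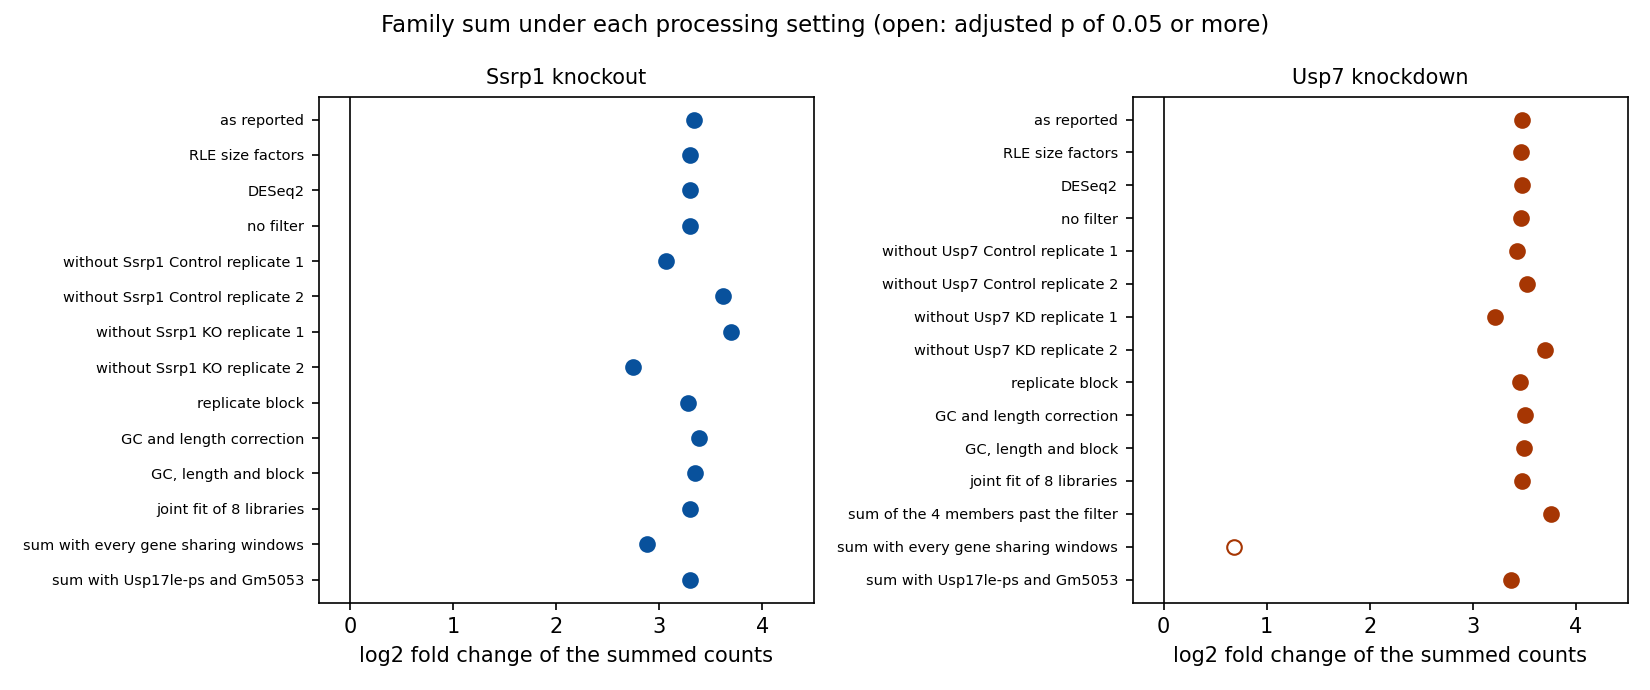
Log2 fold change of the Usp17l family sum (x axis) under each processing setting (rows), for the Ssrp1 knockout-labelled libraries and for Usp7 knockdown; open points have an adjusted p of 0.05 or more. The sum is called in every setting but 1, the Usp7 sum to which all genes sharing windows with a member, Adgrv1 among them, were added (0.69).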

How the data were processed

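The mRNA-seq libraries of 8 samples were made from total RNA, per the labels' protocols, and each experiment was deposited as 1 table of raw counts per gene. The submitters' processing notes name cutadapt, HISAT2, featureCounts and the mm10 build. They state no version, strand or multi-mapping setting. Each table held 54232 genes and 92 spike-in sequences, the latter all at 0 and left out. Samples were grouped by their titles, and no column of another series was present. The replicates of a group differed by more than sampling noise.

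Genes were filtered with filterByExpr, scaled by TMM and tested within each experiment by edgeR 4.0.16 quasi-likelihood tests (glmQLFit, R 4.3.3), with Benjamini-Hochberg adjustment over all genes tested and a threshold of 0.05. The family sum replaced the 5 member rows in the same tables. The difference of changes came from 1 fit of all 8 libraries. CPM were scaled within each experiment, so levels set across experiments outside that fit depend on this. Correlations used log2 CPM with a prior count of 2. Alternatives were RLE size factors, DESeq2 1.42.0, no filter, each library left out, a replicate block, GC and length correction, a fit of all libraries and other compositions of the sum. Counts of 2-cell-like markers under these settings were added later. The script was tested on simulated data. Transcripts were searched with blastn 2.17.0 and aligned with mafft 7.526.

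The members, gene lists and tests were chosen with earlier results of these data known. Genes named besides the members are the 2 targets, the 5 genes most correlated with the sum, and neighbours on the chromosome. Up to 4 called genes per list, direction and experiment with the largest change are named too. A few were chosen after their values were seen: Adgrv1, Gm5053, Usp17le-ps, Usp6nl, Duxf3, Csf2rb, Il2rb, Il3ra and Cdc25a. The lists cover pluripotency, fibroblast, primitive endoderm, trophoblast and 2-cell-like markers, and regulators of the 2-cell-like programme. They also cover cytokine receptors with JAK-STAT genes, reported substrates, genes with a Usp symbol, and deubiquitinases of other classes. Duxf3 is in both of the 2-cell-like lists.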

Additional observations from a re-analysis of the deposited data

Results flagged for a closer look

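Of the neighbouring and related genes that enter none of the comparisons, 3 had counts in both libraries labelled Ssrp1 knockout above those of both controls. A few others differed by single counts, such as Gm4887 with 0 and 2 against 1 and 0. Gm25774, an annotated miRNA gene inside Usp17lc, had 6 and 17 counts, 23 in all, against 0 in the controls. Gm25171, an annotated miRNA gene between Usp17ld and Usp17lc, had 7 and 6 counts, 13 in all, against 2 in the controls. The pseudogene Usp17le-ps had 2 and 2 counts, 4 in all, against 0 in the controls, just above the 3 counts that a 0 allows. None of the 3 reached the filter on low counts, so none was tested. Gm25774 lies within a member, and the strand setting of the counting is not given in the sources used here.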

How the results depend on the processing

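The family sum in the libraries labelled Ssrp1 knockout was called in all 13 alternatives, with log2 changes from 2.75 to 3.70. After Usp7 knockdown it was called in 13 of 14, the exception being the sum with every gene that shares windows, Adgrv1 included (0.69, adjusted p = 0.192). The same sum with Usp17le-ps and Gm5053 but not Adgrv1, chosen after seeing the data, was called in both experiments. Of 169 single-member values under alternatives, 153 kept their call or lack of it, 12 lost the call, 0 gained one and 4 changed sign. Members called in the Ssrp1 experiment numbered 2 to 5 with 1 library left out. In the Usp7 experiment they numbered 0 to 3 with 1 library left out and 1 without a filter.

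Genes called over the whole Ssrp1 table numbered 585, against 1109 by DESeq2, 1497 without a filter, 323 with GC and length correction, 1314 in the fit of all libraries and 20 to 1884 with 1 library left out. In the Usp7 table they numbered 476, against 100 without a filter, 768 with GC and length correction, 78 in the fit of all libraries and 42 to 3770 with 1 library left out. For the difference of changes 171 genes were called, against 672 by DESeq2, 945 without a filter and 1 to 1109 with 1 library left out. A replicate block gave 988, 1471 and 525 calls in the Ssrp1, Usp7 and difference fits, and 932, 1810 and 373 with GC and length correction added. Higher against lower calls were 534 against 51 in the Ssrp1 table and 699 against 233 with the correction and block, and 376 against 100 and 1088 against 722 in the Usp7 table. The block changed no Usp17l call. With 2 pairs, same-numbered libraries deviated together at correlations of 0.184 and 0.144, and nothing in the labels says that a number marks a shared culture.

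The difference of the 2 family-sum changes, -0.18, ranged from -0.80 to 0.22 with 1 library left out and was above 0 in 3 of these fits, and it was 2.15 (adjusted p = 0.05807) for the sum with every gene that shares windows. For Usp17lb it ranged from -0.86 to 0.21 and was above 0 in 4 of these fits, at 0.13, 0.21, 0.02 and 0.03. None of these was called, and the cause of any of these shifts was not tested. With windows of 50 bases the share found in no other gene was 79.9% for Usp17la, 78.6% for Usp17lb, 55.3% for Usp17lc, 48.9% for Usp17ld and 70.2% for Usp17le, and with 150 bases it was 98.7%, 97.8%, 70.6%, 63.9% and 99.2%. In the Usp7 controls each member rests on 3 to 6 counts, which limits the precision of its change, at library totals of 18361130 and 16670869, within the range of the other 6 libraries or above it. For Usp17le the difference ranged from -5.97 to -1.39 with 1 library left out.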
